A study of Mus musculus with 17 samples.

Results

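Interferon-stimulated antiviral genes were examined in spinal cord around an inflammatory lesion, in targeted experimental autoimmune encephalomyelitis (EAE). The set held 41 mouse genes chosen by symbol for their known place in the interferon response. Of these, 39 were measured, among 18194 genes with a probe set of their own. Each gene was represented by its single-gene probe set with the highest mean log2 signal over all arrays. Isg15 was present only on a probe set that the annotation shares with Gm9706, and no probe set was named for Ifi44, so that neither entered the counts.

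The arrays came from 17 female C57BL/6 mice labelled as 8 weeks of age, with 1 array per mouse. In the anti-RGMa group, 6 mice with targeted EAE received a humanized antibody against repulsive guidance molecule a (RGMa), a membrane protein that repels growing axons. In the isotype control group, 5 mice with targeted EAE received palivizumab, an antibody against a respiratory virus protein. In the naïve group, 6 mice were left untreated. Both EAE groups had been immunized with a myelin oligodendrocyte glycoprotein peptide in complete Freund's adjuvant and had undergone a thoracic laminectomy. Weeks after the immunization TNF-α and IFN-γ were injected into the cord, and pertussis toxin was given intravenously. By this course the EAE mice were older than the labelled age at sampling. Antibody was given at 10 mg/kg from 9 days post cytokine injection (DPI), and a stretch of cord 4.5 mm wide around the injection site was taken at 14 DPI. Naïve mice had none of these steps. In a comparison with naïve cord, immunization, surgery, toxin, the injected TNF-α and IFN-γ, antibody dosing and the disease cannot be told apart. The same holds for any difference in age. In whole cord, more cells of a type and more RNA per cell cannot be told apart either.

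Interferons are secreted proteins that put cells into an antiviral state. Type I interferons (IFN-α and IFN-β) act through the receptor chains Ifnar1 and Ifnar2 and lead to a complex that holds STAT2 and IRF9 and binds the interferon-stimulated response element (ISRE). Type II interferon (IFN-γ), made by T cells and natural killer cells, acts through Ifngr1 and Ifngr2, and many of its target genes carry the gamma-activated site (GAS). In the central nervous system many of these genes are induced by infection or by inflammation, in glia as well as in infiltrating leukocytes.

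All values are the authors' MAS5.0 signals on a log2 scale. The trimmed mean of every array was 500, array medians lay between 132 and 165, and correlations between arrays between 0.863 and 0.947. The tissue label was borne out by neuron, oligodendrocyte and astrocyte markers, whose list means lay at 11.64 or higher in every array. Isotype control replicates 3, 4 and 5 stood apart by skeletal muscle markers. The mean log2 signal of 12 such genes was 5.30 to 6.95 in anti-RGMa mice, 9.06, 13.2 and 9.17 in these 3 isotype control mice, 4.61 and 5.27 in the other isotype control mice and 3.93 to 7.88 in naïve mice. In isotype control replicate 4 the muscle mean lay above those of the neuron (12.16), oligodendrocyte (12.69) and astrocyte (12.57) markers. Counts of the interferon-stimulated genes in the comparisons with isotype control cord are given below with these 3 arrays and without them. Counts of the other lists are given with all arrays only.

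Promoters were looked at first, since the ISRE and GAS are written in sequence. The ISRE was searched on both strands as GAAA, any 2 bases and GAAA again, and the GAS as TTCNNNGAA, which reads the same on both strands, in RefSeq windows (GRCm38.p6) reaching from 250 bases before a gene's start to 50 bases after it. Windows were given for 31 of the 39 measured genes. An ISRE was present in 12 of these 31 genes (38.7%), against 1079 of 27025 genes with a window (3.99%), and a GAS in 10 (32.3%), against 2582 of all genes (9.55%). Both were present in 4 of the 31 genes and neither in 13. These shares describe letters in a window and not binding.

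The windows below belong to the gene with the largest rise among the ISRE holders of its class, and to the neighbours Rsad2 and Cmpk2. Each is printed 5′ to 3′ on the gene's strand, with ISRE letters in capitals.
Ifit1 (chr19:34640639-34640938, plus strand): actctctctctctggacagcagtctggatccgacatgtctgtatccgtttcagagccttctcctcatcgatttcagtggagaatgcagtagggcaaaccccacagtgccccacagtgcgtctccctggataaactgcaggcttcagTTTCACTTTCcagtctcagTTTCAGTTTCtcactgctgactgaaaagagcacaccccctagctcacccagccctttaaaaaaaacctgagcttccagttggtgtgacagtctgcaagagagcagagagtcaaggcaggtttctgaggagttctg
Oas1a (chr5:120907476-120907775, minus strand): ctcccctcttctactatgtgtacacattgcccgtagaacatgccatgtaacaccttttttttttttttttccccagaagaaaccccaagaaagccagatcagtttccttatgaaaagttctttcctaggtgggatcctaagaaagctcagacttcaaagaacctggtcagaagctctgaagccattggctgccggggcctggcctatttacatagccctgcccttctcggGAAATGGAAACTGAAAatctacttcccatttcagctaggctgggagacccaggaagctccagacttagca
Ifih1 (chr2:62646206-62646505, minus strand): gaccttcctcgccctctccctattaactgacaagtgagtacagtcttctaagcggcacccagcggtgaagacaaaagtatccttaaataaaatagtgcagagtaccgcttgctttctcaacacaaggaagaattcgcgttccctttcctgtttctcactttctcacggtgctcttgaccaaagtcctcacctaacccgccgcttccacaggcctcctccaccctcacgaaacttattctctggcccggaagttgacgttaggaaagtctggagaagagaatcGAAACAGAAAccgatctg
Bst2 (chr8:71537423-71537722, minus strand): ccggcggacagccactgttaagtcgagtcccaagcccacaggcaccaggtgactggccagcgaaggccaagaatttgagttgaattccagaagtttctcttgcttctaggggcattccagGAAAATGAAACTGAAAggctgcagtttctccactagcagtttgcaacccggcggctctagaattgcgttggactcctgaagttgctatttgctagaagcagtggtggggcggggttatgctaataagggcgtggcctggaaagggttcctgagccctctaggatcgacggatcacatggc
Stat2 (chr10:128270248-128270547, plus strand): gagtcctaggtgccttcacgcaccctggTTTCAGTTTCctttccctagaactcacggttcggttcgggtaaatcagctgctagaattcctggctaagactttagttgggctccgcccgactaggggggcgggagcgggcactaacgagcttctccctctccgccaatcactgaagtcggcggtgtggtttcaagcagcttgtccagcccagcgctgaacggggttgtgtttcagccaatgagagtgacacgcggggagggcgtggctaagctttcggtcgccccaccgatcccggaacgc
Rsad2 (chr12:26456403-26456702, minus strand): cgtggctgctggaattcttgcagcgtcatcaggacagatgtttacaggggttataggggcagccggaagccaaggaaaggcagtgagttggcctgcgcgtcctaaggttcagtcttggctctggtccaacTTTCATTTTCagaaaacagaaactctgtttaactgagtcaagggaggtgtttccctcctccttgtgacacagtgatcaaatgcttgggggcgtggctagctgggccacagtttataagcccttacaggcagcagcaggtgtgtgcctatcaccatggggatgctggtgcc
Cmpk2 (chr12:26468965-26469264, plus strand): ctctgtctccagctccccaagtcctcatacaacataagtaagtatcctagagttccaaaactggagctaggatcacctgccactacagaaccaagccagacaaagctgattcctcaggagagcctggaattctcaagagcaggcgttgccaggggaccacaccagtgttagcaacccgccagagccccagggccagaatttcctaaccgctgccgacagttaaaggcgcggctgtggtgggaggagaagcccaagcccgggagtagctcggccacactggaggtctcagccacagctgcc
Ifit1 held 2 elements, TTTCACTTTC and TTTCAGTTTC, which begin 104 and 85 bases before the start and read on the opposite strand. Oas1a held 2 overlapping elements, GAAATGGAAA and GAAACTGAAA, which begin 20 and 14 bases before the start. Bst2 also held an overlapping pair, 130 and 124 bases before the start, which a GAS (TTCCAGGAA, 136 bases before the start) overlaps in turn. The element of Ifih1, GAAACAGAAA, lay after the start, and that of Stat2, TTTCAGTTTC, 222 bases before it. Rsad2 held TTTCATTTTC 120 bases before its start. The window of Cmpk2, which no other coding gene separates from Rsad2, held no ISRE by these letters. Among the regulators, Irf1 held a GAS (TTCCCCGAA, 90 bases before the start) and Irf8 held 2 (TTCTCGGAA and TTCAGAGAA, 171 and 153 bases before it).

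**Figure D1:**
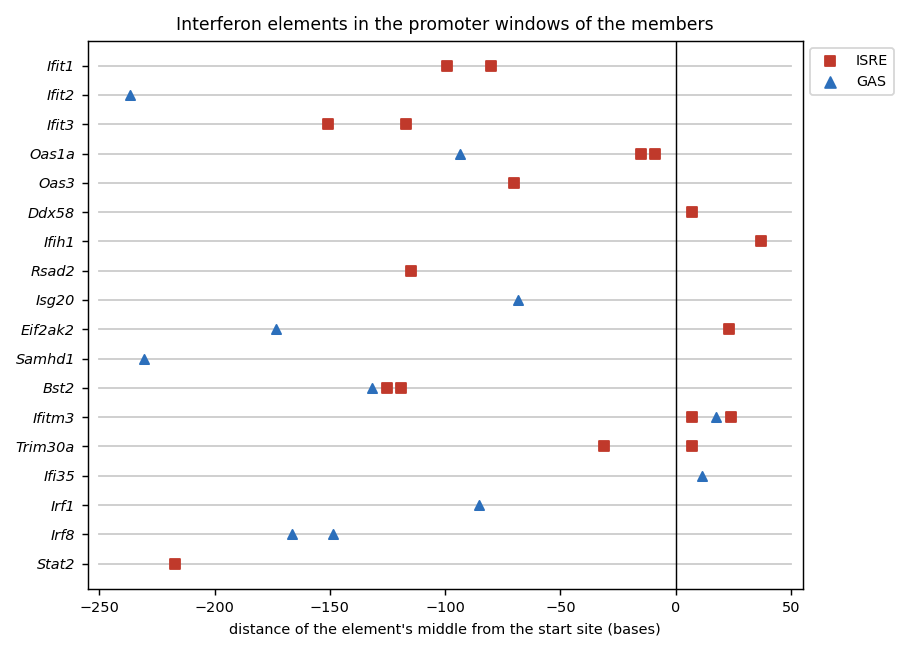
Positions of the ISRE (red squares) and the GAS (blue triangles) in the promoter windows of the 18 measured genes that held at least 1 of them, as the distance of the element's middle from the start site in bases, with windows of several starts drawn on 1 line. ISREs lie on both sides of the start site, and Irf1 and Irf8 hold only GAS.

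To see how far this program was engaged in the lesion, isotype control cord was set against naïve cord. Nearly the whole set was higher in isotype control cord, from the RNA sensors to the effectors and the transcription factors. Of the 39 genes, 38 rose, 0 fell and 1 (Cmpk2) did not pass an adjusted p under 0.05 (limma, Benjamini-Hochberg over 18194 genes), while 24.6% of all genes rose and 27.2% fell. The median log2 fold change was 3.08, against -0.04 over all genes. A log2 fold change over 2 was found in 32 of the 39 genes (82.1%) and in 1083 of all genes (5.95%). The isotype control arrays all lay above the naïve arrays for 38 of the 39 genes, which held for 18.3% of all genes. Without isotype control replicates 3, 4 and 5 the count was again 38, with a median of 2.96.

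**Figure D2:**
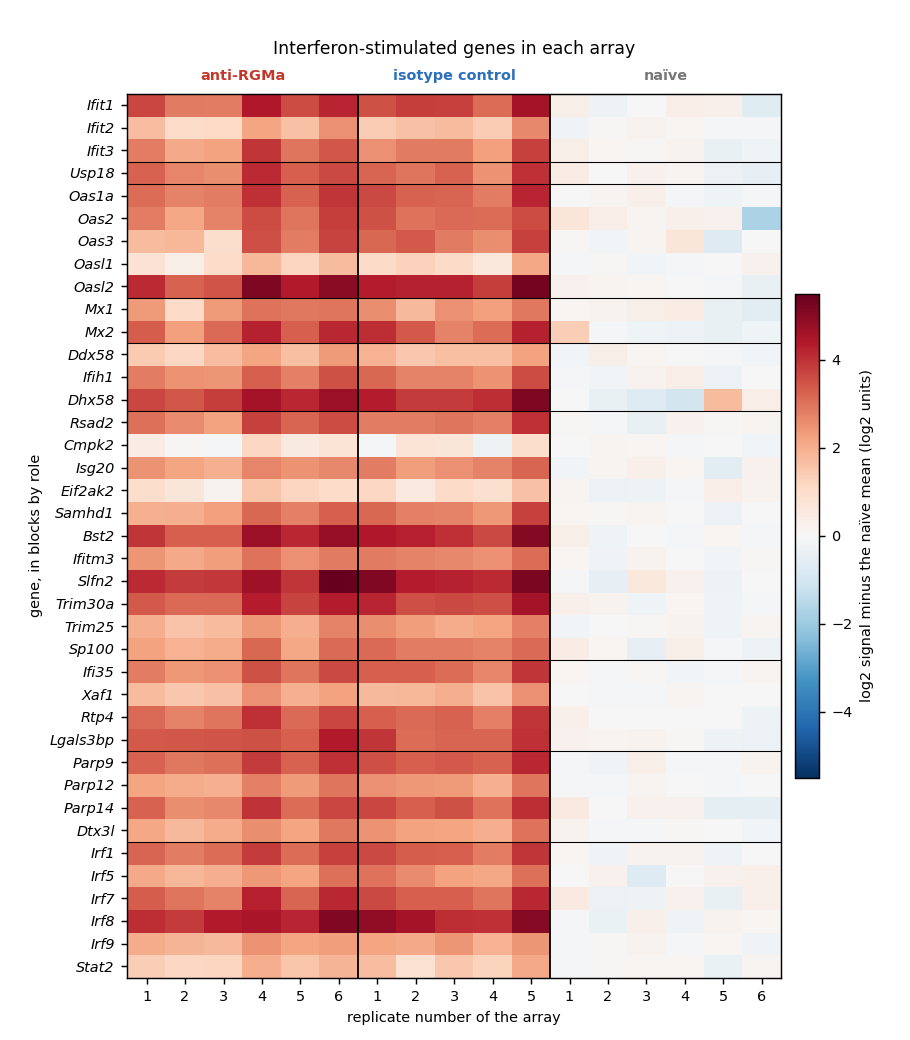
Log2 signal minus the naïve mean of the gene, for 39 genes (rows, in blocks by role) in 17 arrays (columns, by group and replicate number). Rows are red in both EAE groups apart from Cmpk2, and anti-RGMa replicates 4 and 6 and isotype control replicate 5 are the deepest columns.

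The IFIT proteins bind viral RNA and block its translation. All 3 rose, with log2 fold changes of 1.76 (Ifit2) to 3.74 (Ifit1). Ifit1 had log2 signals of 10.05, 10.33, 10.28, 9.60 and 11.10 in isotype control mice, against 6.86, 6.26, 6.52, 6.89, 6.80 and 5.87 in naïve mice. The lowest isotype control array lay well above the highest naïve array, and the fold change was 13.3 (SE 0.32 on the log2 scale, adjusted p = 1.58e-07 from limma). Ifit2 and Ifit3, which lie side by side on chromosome 19, had log2 fold changes of 1.76 and 2.85, although only Ifit3 held the ISRE in its window.

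Usp18, the protease that removes ISG15 from proteins and dampens signalling at the type I receptor, had log2 signals of 10.16, 9.92, 10.20, 9.41 and 10.99 in isotype control mice, against 7.38, 6.93, 7.21, 7.11, 6.63 and 6.49 in naïve mice. It rose 9.06-fold (log2 fold change 3.18, SE 0.30), with no overlap of the groups. Its partner Isg15, the ubiquitin-like protein itself, could be read only through the shared probe set, with means of 10.45 ± 0.76 in anti-RGMa mice (SD, n = 6), 10.57 ± 0.64 in isotype control mice (SD, n = 5) and 7.43 ± 0.44 in naïve mice (SD, n = 6).

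Active oligoadenylate synthetases (OAS) sense double-stranded RNA and switch on RNase L, which degrades RNA. All 5 genes of this family in the set rose, by log2 fold changes of 1.21 (Oasl1) to 4.36 (Oasl2). Oasl2 had log2 signals of 11.11, 11.04, 11.01, 10.58 and 12.04 in isotype control mice, against 7.05, 6.97, 6.88, 6.82, 6.68 and 6.37 in naïve mice. This is a 20.6-fold difference (SE 0.32 on the log2 scale, adjusted p = 4.00e-08 from limma) between groups that lay far apart. Its neighbour on chromosome 5, Oasl1, which in mice restrains translation of Irf7, had 2.32-fold. Oas1a, Oas2 and Oas3 had log2 fold changes of 3.42, 3.25 and 3.15. Oas2 and Oas3 were dim in naïve mice, and with 32 added to every signal before the log their values were 2.59 and 1.90.

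The Mx GTPases are a family of antiviral proteins, and the RNA of both rose. Whether these mice made working Mx protein was not measured. Mx2 had log2 signals of 8.18, 7.50, 6.86, 7.18 and 8.35 in isotype control mice, against 5.45, 3.99, 3.87, 3.78, 3.71 and 3.89 in naïve mice. The groups did not overlap, and the log2 fold change was 3.50 (SE 0.39) for Mx2 and 2.40 for Mx1. Naïve signals of Mx2 were dim, and with 32 added its log2 fold change was 2.19, and that of Mx1 1.78.

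Of the RNA sensors, which report foreign RNA to the interferon genes, all 3 rose. Dhx58 (LGP2, a regulator of the other sensors) had log2 signals of 8.36, 7.89, 7.91, 8.11 and 9.19 in isotype control mice, against 4.03, 3.63, 3.35, 3.04, 5.80 and 4.40 in naïve mice. Its log2 fold change was 4.25 (SE 0.42), or 2.78 with 32 added, since its naïve signals were among the dimmest of the set. Of its 3 probe sets, 2 rose, and with their mean the value was 2.53. Ifih1 (MDA5) had a log2 fold change of 2.94 and Ddx58 (RIG-I) 1.78.

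Of 11 further antiviral effectors, 10 rose. Slfn2, which holds T cells and monocytes of mice in quiescence, had the largest rise of all 39 genes. Its log2 signals were 11.84, 11.05, 10.97, 10.88 and 11.95 in isotype control mice, against 6.65, 6.32, 7.33, 6.98, 6.48 and 6.75 in naïve mice. The difference was 24.0-fold (log2 fold change 4.59, SE 0.30, adjusted p = 1.09e-08 from limma), and the groups did not overlap. Bst2 (tetherin, which holds budding virus at the cell surface) had a log2 fold change of 4.28 and Trim30a, a regulator of inflammatory signalling in mice, 3.89. Rsad2 (viperin, which makes a chain-terminating nucleotide) had 3.08, Samhd1 (which depletes nucleotides) 2.95, with a rise on 4 of its 5 probe sets, Sp100 (of nuclear bodies) 2.90, Ifitm3 (which hinders virus entry) 2.75, Isg20 (an exonuclease) 2.72 and Trim25 (a ubiquitin ligase that acts on RIG-I) 2.36. Eif2ak2 (PKR, a kinase that stops translation) had the smallest rise that passed on the probe set used. All 3 of its probe sets rose, by 1.05 to 2.16, and with their mean its log2 fold change was 1.68, so that its place in the order depends on the probe set. On the probe set used, its log2 signals were 8.83, 8.21, 8.76, 8.57 and 9.31 in isotype control mice, against 7.85, 7.36, 7.42, 7.56, 8.04 and 7.89 in naïve mice, a log2 fold change of 1.05 (SE 0.22).

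Cmpk2, a mitochondrial nucleotide kinase, was the exception. Its log2 signals were 9.63, 10.47, 10.39, 9.45 and 10.69 in isotype control mice, against 9.70, 9.85, 9.82, 9.65, 9.68 and 9.55 in naïve mice. Of the 5 isotype control mice, 3 lay above all naïve mice and replicates 1 and 4 did not. The log2 fold change was 0.42 (SE 0.24, 95% interval -0.08 to 0.92, adjusted p = 0.157 from limma), and without isotype control replicate 4 it was 0.59 and passed (adjusted p = 0.0419 from limma). The gene has a second, dimmer probe set, whose log2 fold change was -0.56 and did not pass. Rsad2, its neighbour on chromosome 12, was at 10.27, 10.29, 10.44, 10.26 and 11.51 in the same isotype control mice, against 7.54, 7.35, 7.08, 7.73, 7.55 and 7.62 in naïve mice.

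Among other interferon-induced genes all 4 measured rose, with Lgals3bp, a secreted glycoprotein, highest at a log2 fold change of 3.49 (SE 0.22). It had log2 signals of 13.06, 12.21, 12.36, 12.34 and 13.15 in isotype control mice, against 9.36, 9.28, 9.32, 9.18, 8.86 and 8.80 in naïve mice. Rtp4 (which binds nucleic acid and helicases) had 3.27, Ifi35 3.26 (2.60 with the mean of its probe sets) and Xaf1 (a regulator of cell death) 1.93. The ADP-ribosyl transferases and Dtx3l, a ubiquitin ligase that works in a complex with PARP9, rose in 4 of 4. Parp9 had log2 signals of 10.75, 10.50, 10.55, 10.45 and 11.35 in isotype control mice, against 7.09, 7.01, 7.51, 7.08, 7.11 and 7.38 in naïve mice, a difference of 11.5-fold. Parp14, Dtx3l and Parp9 are direct neighbours on chromosome 16 and had log2 fold changes of 3.50, 2.36 and 3.52.

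The transcription factors of the set rose in 6 of 6. Irf8, which directs the development of monocytes, macrophages and microglia, had log2 signals of 11.67, 11.38, 10.85, 10.81 and 11.79 in isotype control mice, against 6.74, 6.46, 7.10, 6.61, 7.00 and 6.92 in naïve mice. It had the smallest adjusted p of the set (22.6-fold, SE 0.23 on the log2 scale, adjusted p = 6.46e-10 from limma). Irf7, the amplifier of IFN-α production, had a log2 fold change of 3.47 and Irf1, a main target of IFN-γ, 3.41. Irf5, a factor of macrophages, had 2.59, and 1 of its 2 probe sets rose (1.42 with their mean). Irf9 and Stat2, partners in the type I complex, had 2.21 and 1.47.

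**Figure D3:**
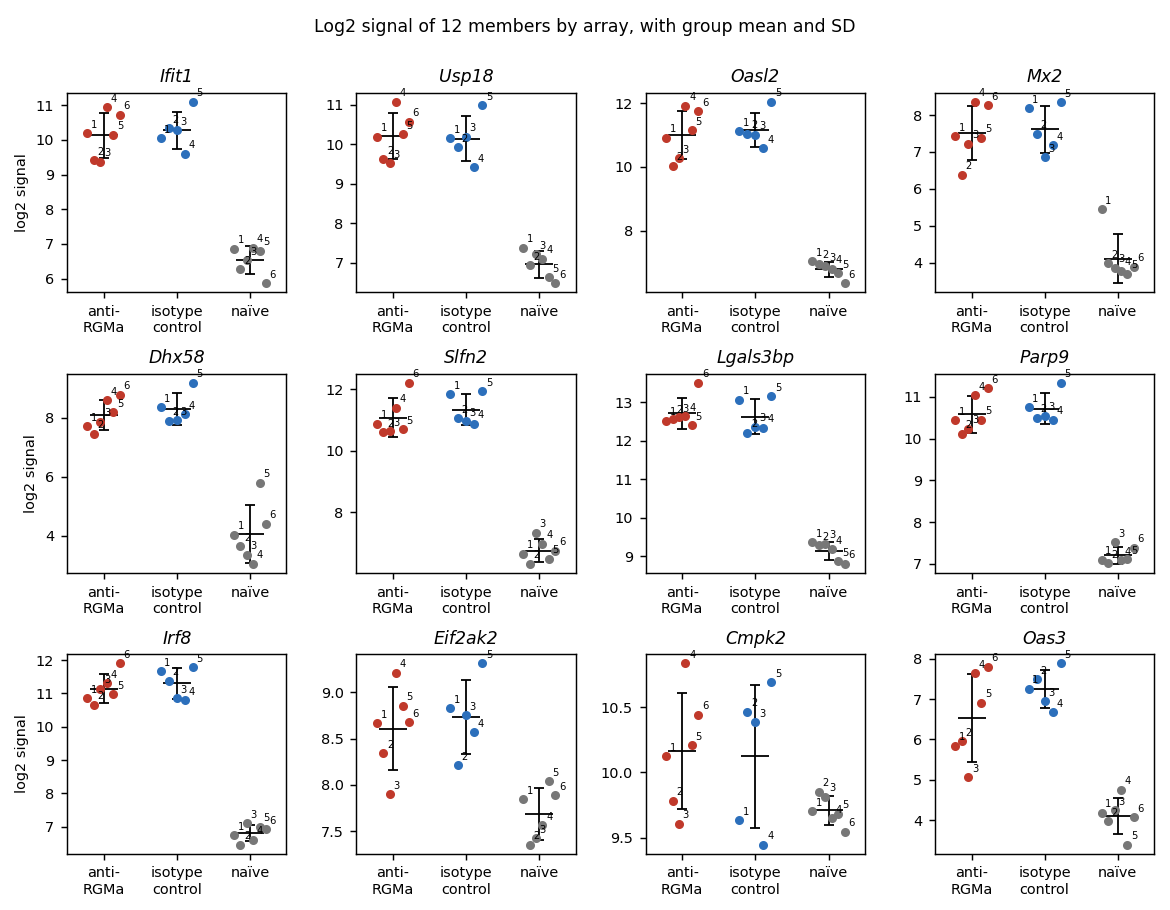
Log2 signal of 12 genes in each array (points, with replicate numbers) by group, with the group mean and SD (bars). Both EAE groups lie apart from naïve mice for most genes, Eif2ak2 lies close to the naïve values and Cmpk2 overlaps them, while anti-RGMa and isotype control mice overlap in all 12.

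Anti-RGMa cord was likewise compared with naïve cord, and most of the set was again far higher. Of the 39 genes, 38 rose and 0 fell, against 20.3% of all genes that rose and 21.6% that fell (limma, adjusted p under 0.05). The median log2 fold change was 2.90, against -0.03 over all genes. The anti-RGMa and naïve arrays did not overlap for 37 genes, which held for 13.9% of all genes in that direction. Irf8 had the largest value (4.34, 20.2-fold), followed by Slfn2 (4.32), Oasl2 (4.21), Dhx58 (4.06) and Bst2 (4.03). Cmpk2 again did not pass, with 10.12, 9.78, 9.61, 10.84, 10.21 and 10.44 in anti-RGMa mice (log2 fold change 0.46, adjusted p = 0.117 from limma). Eif2ak2 passed with 0.92, while anti-RGMa replicate 3 (7.90) lay within the naïve range of 7.36 to 8.04. The 2 comparisons with naïve cord share the same naïve mice.

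**Figure D4:**
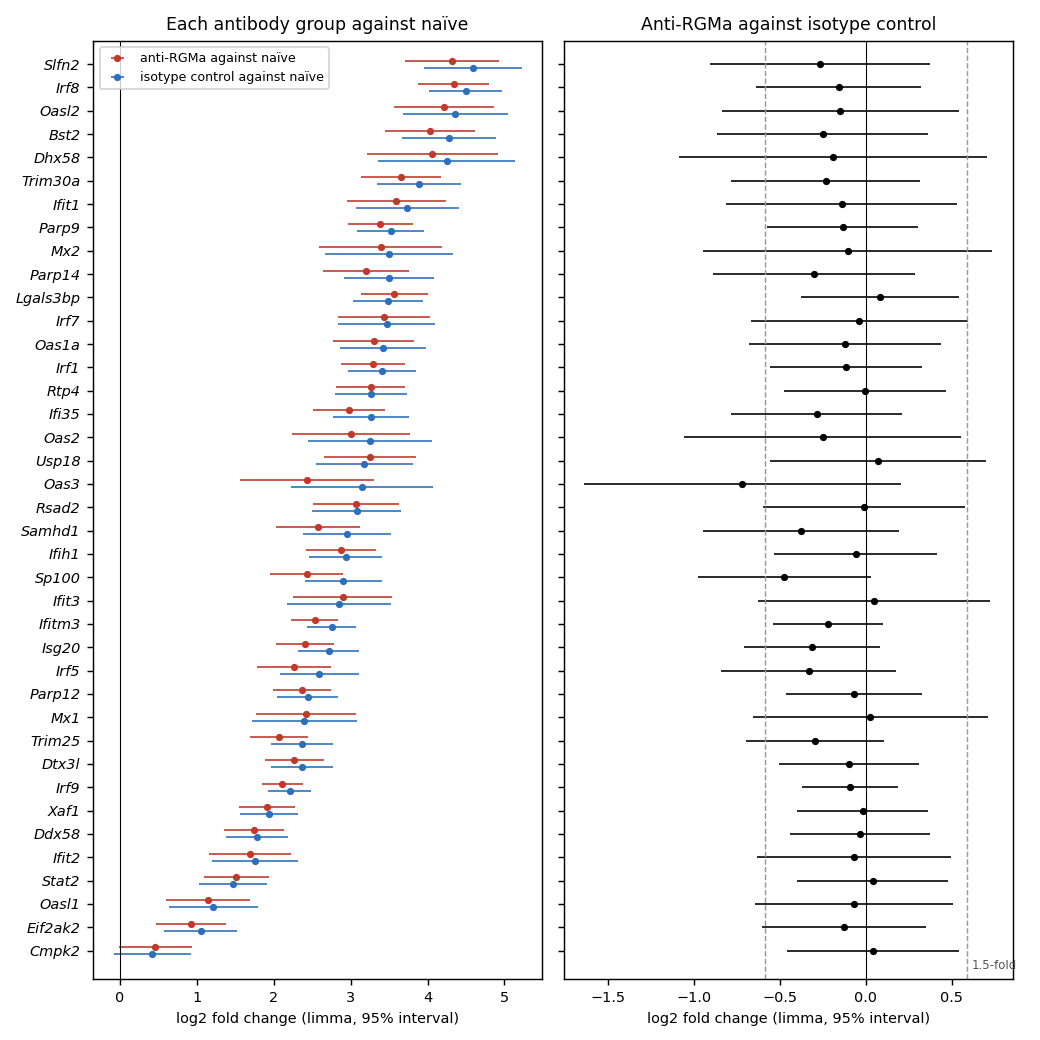
Log2 fold changes with 95% intervals from limma for 39 genes, ordered by the value in isotype control against naïve cord. On the left, anti-RGMa (red) and isotype control (blue) against naïve cord, with only the Cmpk2 intervals reaching 0, and on the right anti-RGMa against isotype control, with all 39 intervals holding 0 and dashed lines at a 1.5-fold difference.

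The central question of the design was whether the antibody altered the EAE cord. At the threshold used by the study (over 1.5-fold, with an unadjusted p under 0.05), 0 of the 39 genes rose and 0 fell in anti-RGMa cord relative to isotype control cord, against 1.22% of all genes that rose and 2.72% that fell. At an unadjusted p under 0.05 with no fold limit, 0 of 39 passed (9.01% of all genes higher, 6.77% lower), and 0 passed an adjusted p under 0.05 (0.0055% of all genes higher, which is 1 gene, and 0% lower). The count over all genes rested on 1 array, since without anti-RGMa replicate 6 994 genes were higher and 509 were lower by the same rule, with 0 of the 39 among them. The median log2 fold change was -0.12, against 0.01 over all genes, and 33 of 39 values were below 0 (48.1% of all genes). The direction rested on single arrays. Without isotype control replicate 5 the median was 0.05 with 15 of 39 values below 0, and without anti-RGMa replicate 6 it was -0.25 with 39 of 39 below 0. Without isotype control replicate 4, the array highest for muscle markers, 38 of 39 were below 0, and without anti-RGMa replicate 2 it was 20 of 39. The arrays of the groups overlapped for all 39 genes, while of all genes 0.242% lay higher and 0.566% lower without overlap. Without isotype control replicates 3, 4 and 5, only replicates 1 and 2 of that group were left. The counts of the 39 genes were then again 0, beside 517 of all genes higher and 308 lower at the study's threshold. The median of the 39 genes was -0.07. With so few mice, a count of 0 is weak evidence.

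A p that misses the threshold does not show that the groups were alike, so that the intervals are given. All 39 intervals held 0, and they reached 0.51 to either side of the estimate in the median. For 13 genes the whole interval lay within a 1.5-fold difference either way. For 25 it reached past 1.5-fold on the lower side, and for 6 on the higher side, so that a difference of that size was not excluded for them. The narrowest was that of Irf9 (log2 fold change -0.09, 95% interval -0.37 to 0.19) and the widest that of Oas3.

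Oas3 had the lowest value of the set. Its log2 signals were 5.84, 5.95, 5.07, 7.64, 6.91 and 7.80 in anti-RGMa mice, against 7.25, 7.50, 6.95, 6.68 and 7.88 in isotype control mice. Anti-RGMa replicates 1, 2 and 3 lay below all isotype control mice and replicates 4 and 6 near the top of their range. The log2 fold change was -0.72 (SE 0.43, 95% interval -1.64 to 0.20, adjusted p = 0.417 from limma). Without anti-RGMa replicate 4 it was -0.94 and without replicate 6 it was -0.97, and both passed the study's threshold, with adjusted p = 0.316 and 0.141 from limma.

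Sp100 had a similar split. Its log2 signals were 8.27, 7.95, 8.09, 9.22, 8.20 and 9.16 in anti-RGMa mice, against 9.15, 8.87, 8.85, 8.76 and 9.15 in isotype control mice. Replicates 4 and 6 were above every isotype control mouse and the other 4 anti-RGMa mice below every one of them. The log2 fold change was -0.47 (95% interval -0.97 to 0.03, adjusted p = 0.340 from limma, the smallest of the set). It was -0.62 without anti-RGMa replicate 4 and -0.61 without replicate 6, which passed the study's threshold (adjusted p = 0.241 and 0.0971 from limma). Isg20 was the one gene for which all 6 anti-RGMa mice (8.45, 8.12, 7.92, 8.65, 8.44 and 8.59) lay below the isotype control mean, with 8.75, 8.27, 8.49, 8.69 and 9.17 in isotype control mice and a log2 fold change of -0.31 (95% interval -0.71 to 0.08).

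By role class, the medians in this comparison lay between -0.25 and 0.07, and 0 genes passed in any class. The median log2 fold change was -0.07 for the IFIT proteins, -0.15 for the OAS family, -0.04 for the Mx GTPases, -0.06 for the RNA sensors and -0.25 for the further antiviral effectors, of which 10 of 11 were below 0. It was -0.01 for the other interferon-induced genes, -0.12 for the ADP-ribosyl transferases and Dtx3l and -0.10 for the transcription factors. Values above 0 belonged to Lgals3bp (0.08), Usp18 (0.07), Ifit3 (0.05), Cmpk2 (0.04), Stat2 (0.04) and Mx1 (0.03).

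Within the groups the genes moved by array. The mean log2 signal of the 39 genes was 9.95, 9.54, 9.67, 10.68, 10.09 and 10.71 in anti-RGMa mice, 10.35, 10.09, 10.11, 9.84 and 10.88 in isotype control mice and 7.22 to 7.47 in naïve mice. The highest anti-RGMa array was replicate 4 for 21 genes and replicate 6 for 18, and the lowest was replicate 2 for 25 and replicate 3 for 12. Isotype control replicate 5 was the highest of its group for 38 of the 39 genes. Replicate 4, which had the highest mean of the muscle markers (13.2), was the lowest of that group for 27. Exactly 2 of 6 anti-RGMa mice lay above the isotype control mean for 30 genes. The distance between the highest and the lowest array of a gene had a median of 1.27 in anti-RGMa mice, 1.14 in isotype control mice and 0.57 in naïve mice, on the log2 scale.

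Markers of leukocytes and microglia moved with the set between EAE and naïve cord, and in part between arrays. In naïve mice the macrophage and monocyte markers ran from Ccr2 (1.29 to 5.22) to Csf1r (11.98 to 12.23). That list therefore does not separate infiltrating from resident cells. The mean of 15 macrophage and monocyte markers was 10.24 to 11.38 in anti-RGMa mice, 10.64 to 11.52 in isotype control mice and 6.86 to 7.56 in naïve mice. Their summed signal was 54323 to 88448 in anti-RGMa mice, 52824 to 87521 in isotype control mice and 6214 to 7902 in naïve mice. Of these 15 markers, 15 rose in isotype control cord and 14 in anti-RGMa cord relative to naïve cord. Over all genes, 24.6% rose in isotype control cord and 20.3% in anti-RGMa cord, which also holds beside the counts below. The highest macrophage arrays were isotype control replicate 1 (11.52), anti-RGMa replicate 6 (11.38) and isotype control replicate 5 (11.35), whereas anti-RGMa replicate 4, which shared the top of the interferon set, was at 10.71. Anti-RGMa replicate 4 had the highest mean of 8 neutrophil markers in its group (10.32), with 8.38 to 10.32 in anti-RGMa mice, 8.39 to 10.61 in isotype control mice and 4.74 to 7.22 in naïve mice, and 7 of the 8 rose in each EAE group. Isotype control replicate 5, the highest of its group for the interferon set, had the lowest neutrophil mean of that group (8.39). The mean of 5 B cell markers was 7.24 to 8.23 in anti-RGMa mice, 7.64 to 8.78 in isotype control mice and 5.48 to 6.41 in naïve mice. Of the 5, 4 rose in isotype control cord and 3 in anti-RGMa cord. The mean of 8 T cell markers was 7.48 to 8.51 in anti-RGMa mice, 7.48 to 8.45 in isotype control mice and 3.84 to 4.61 in naïve mice, and 7 of them rose in each EAE group. The mean of 9 microglia markers was 9.62 to 9.81 in anti-RGMa mice, 9.52 to 9.98 in isotype control mice and 8.49 to 8.70 in naïve mice. In isotype control cord 7 of the 9 rose and 1 fell (P2ry12, log2 fold change -0.57), and in anti-RGMa cord 8 rose and 0 fell. The part of these cells in the rise of the interferon-stimulated genes was not tested.

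**Figure D5:**
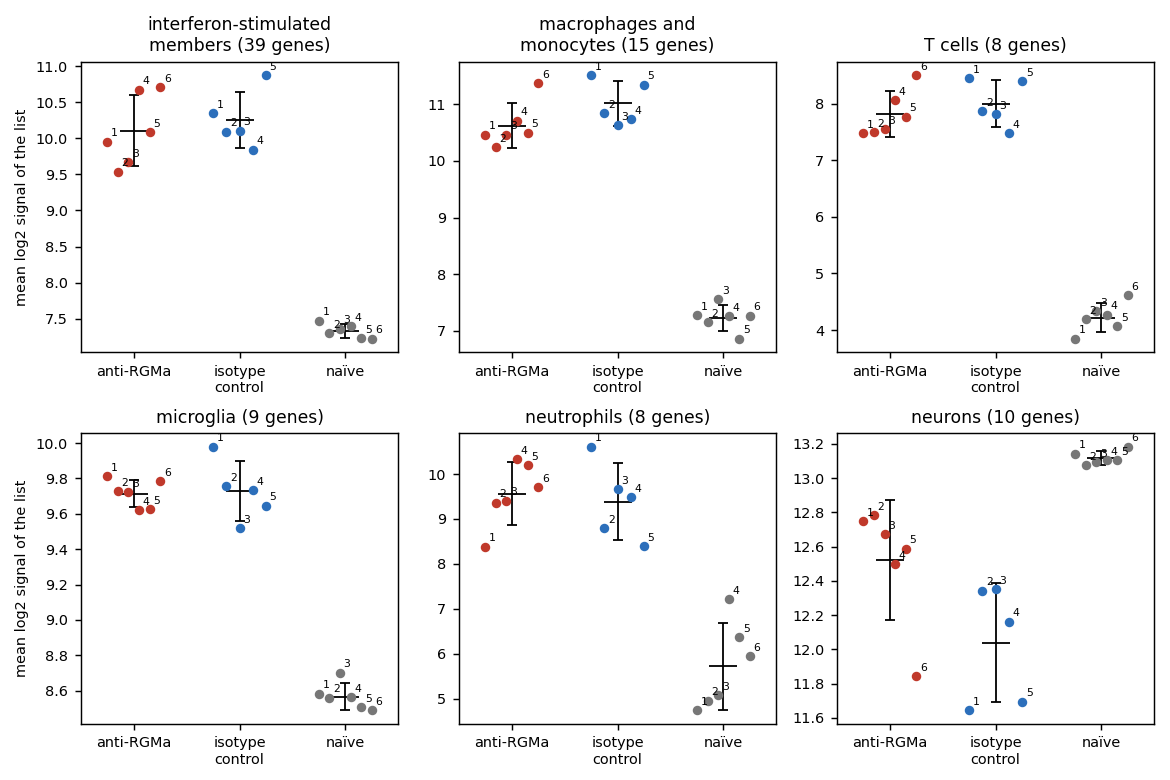
Mean log2 signal of the 39 interferon-stimulated genes and of 5 lists of cell markers in each array (points, with replicate numbers) by group, with the group mean and SD (bars). Anti-RGMa replicate 6 and isotype control replicates 1 and 5 are high for macrophage and T cell markers and low for neuron markers, while anti-RGMa replicate 4 is high for the interferon-stimulated genes.

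Upstream, the interferons and their receptors were read from a list of 12 genes, all measured. Of these, 6 rose and 0 fell in isotype control cord relative to naïve cord, and the same counts were found in anti-RGMa cord (24.6% of all genes rose in isotype control cord and 20.3% in anti-RGMa cord). Ifng had signals of 103, 144, 109, 181, 124 and 314 in anti-RGMa mice, 118, 118, 134, 77.6 and 305 in isotype control mice and 0.916 to 34.3 in naïve mice. The 2 EAE groups overlapped each other and neither overlapped naïve mice, although signals as low as the naïve ones carry background. Most Ifng signals in EAE cord were dim too and lay below the median of their own array (77.6 against 165 in isotype control replicate 4). The size of the Ifng difference is therefore uncertain. The highest arrays were anti-RGMa replicate 6 and isotype control replicate 5, both among the highest for the 39 genes. Ifnb1 had log2 signals of 3.98 to 5.76 in anti-RGMa mice, 3.93 to 5.22 in isotype control mice and 4.90 to 5.66 in naïve mice, which overlapped (isotype control against naïve -0.48, adjusted p = 0.240 from limma). None of the 4 IFN-α genes measured passed. Signals of Ifnb1 and the IFN-α genes were at most 74.7 in any array, below the array medians of 132 to 165. Such dim signals cannot show whether the RNA of these genes changed. The receptor chains Ifnar1, Ifnar2, Ifngr1 and Ifngr2 rose in isotype control cord by log2 fold changes of 0.89, 1.72, 2.05 and 0.62, and in anti-RGMa cord by 0.78, 1.55, 1.70 and 0.56. None of the 12 genes passed in anti-RGMa against isotype control cord.

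Of 18 measured genes of interferon signal transduction, 14 rose and 1 fell in isotype control cord relative to naïve cord (Pias1, a SUMO ligase, -0.19), and 14 rose and 0 fell in anti-RGMa cord. Over all genes these shares were 24.6% and 27.2% in isotype control cord and 20.3% and 21.6% in anti-RGMa cord. In anti-RGMa against isotype control cord 0 of 18 rose and 1 fell at the study's threshold, where 1.22% of all genes rose and 2.72% fell, and a count of 1 is too small to set apart from that share. This was Socs3, a feedback inhibitor of cytokine receptors, at 10.48, 9.87, 9.95, 11.51, 10.98 and 11.07 in anti-RGMa mice, against 11.66, 11.61, 11.07, 11.10 and 11.88 in isotype control mice (log2 fold change -0.82, adjusted p = 0.247 from limma). Of 35 further interferon-stimulated genes, 28 rose and 1 fell (Adar, an RNA editing enzyme, -0.43) in isotype control cord relative to naïve cord, and 29 rose in anti-RGMa cord.

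In the same list, 2 of 35 fell in anti-RGMa relative to isotype control cord at the study's threshold and 0 rose, again beside 2.72% and 1.22% of all genes, so that the count is no result about the list. Helz2, a helicase, had log2 signals of 8.48, 8.22, 8.79, 9.34, 9.08 and 9.68 in anti-RGMa mice, against 9.93, 9.32, 9.64, 9.38 and 9.74 in isotype control mice (log2 fold change -0.67, adjusted p = 0.223 from limma). Ifitm2, a relative of Ifitm3, had log2 signals of 10.67, 10.45, 10.71, 11.41, 10.93 and 11.48 in anti-RGMa mice, against 12.00, 11.38, 11.74, 11.88 and 11.78 in isotype control mice (-0.82, adjusted p = 0.185 from limma). The groups overlapped for both, and neither passed the adjusted threshold. Cell markers were read in the same comparison, and no marker of any list passed an adjusted p under 0.05. In anti-RGMa cord, 3 of 15 macrophage and monocyte, 1 of 8 T cell, 2 of 9 endothelial and 3 of 12 skeletal muscle markers were lower at the study's threshold. The share of all genes was 2.72%, and these counts are small. At that threshold 0 of 8 neutrophil, 0 of 9 microglia and 0 of 5 B cell markers passed in either direction. Of 10 neuron markers, 10 had a value above 0 (median log2 fold change 0.47), with 8 higher at an unadjusted p under 0.05 and 2 at the study's threshold. Over all genes, 9.01% and 1.22% were higher by these rules. At an unadjusted p under 0.05, 5 of 8 oligodendrocyte and 4 of 9 astrocyte markers were higher too, and 0 passed the study's threshold. The part of these cells in the values of the interferon-stimulated genes was not tested.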

How the data were processed

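RNA of spinal cord was measured in 17 mice (6 anti-RGMa, 5 isotype control, 6 naïve) on Affymetrix Mouse Genome arrays. The deposited intensity values are signals that the authors computed with MAS5.0 and global scaling, with no pooling. Affy and MAS5 are the tools named in the submitters' processing notes. Detection calls were not used, and the fold changes of dim genes are less certain for it. Replicate numbers come from the sample titles.

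Probe sets were named through the platform annotation. Of 45101, 34958 had 1 gene, 932 several and 9211 none, and 34754 were matched by gene ID to GRCm38.p6. Log2 signals, with no offset and no filter, of the 3 groups went into a single model (lmFit, then eBayes, of limma 3.58.1 under R 4.3.3). Against naïve cord the threshold was an adjusted p under 0.05 (Benjamini-Hochberg), and for anti-RGMa against isotype control the study's threshold of an unadjusted p under 0.05 and 1.5-fold. The precision is limited by the number of arrays. The fit was tested on simulated data.

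The genes, lists, role classes and tests were chosen with earlier results of these data known. Values per array were given by rule for the gene with the largest rise of each class, for genes that did not pass against naïve cord and for genes whose call changed with 1 array. Rsad2, Isg20, Eif2ak2 and the GAS of Irf1, Irf8 and Bst2 were chosen after their values were seen. Alternatives covered quantile normalization, the offset, the mean of a gene's probe sets, a dim-gene filter, fits of 2 groups only, robust moderation with an intensity trend, array weights, each array left out and a replicate block.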

Additional observations from a re-analysis of the deposited data

Results flagged for a closer look

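Dixon's test for a single array far from the rest of its group was run 120 times over the genes and groups and marked 7, where chance at 1 in 20 gives 6. In anti-RGMa mice, Mx1 was lowest in replicate 2 (log2 signal 6.45, the others 7.77 to 8.40) and Lgals3bp highest in replicate 6 (13.51, the others 12.40 to 12.63). In isotype control mice, Rsad2 was highest in replicate 5 (11.51, the others 10.26 to 10.44). In naïve mice, Oas2 was lowest in replicate 6 (3.93, the others 5.81 to 6.34), Mx2 highest in replicate 1 (5.45, the others 3.71 to 3.99), Samhd1 lowest in replicate 5 (7.85, the others 8.15 to 8.32) and Irf5 lowest in replicate 3 (6.06, the others 6.78 to 7.05).

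Signal above naïve cord was also present on probe sets left out of the comparisons because they carry several genes. The probe set of Isg15 and Gm9706 averaged 10.45 in anti-RGMa mice, 10.57 in isotype control mice and 7.43 in naïve mice. That of Trim30d and Trim30a averaged 8.87 in anti-RGMa mice, 9.01 in isotype control mice and 6.12 in naïve mice.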

How the results depend on the processing

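Over 26 alternatives, 38 or 39 of the 39 genes were higher in isotype control than in naïve cord (39 without isotype control replicate 4) and 38 in anti-RGMa than in naïve cord, with 0 lower in either. The median log2 fold change of anti-RGMa against naïve cord was 2.51 with 32 added to every signal. With each array left out in turn, the medians ranged over 2.85 to 3.15 for isotype control against naïve, 2.79 to 3.06 for anti-RGMa against naïve and -0.25 (without anti-RGMa replicate 6) to 0.05 (without isotype control replicate 5) for anti-RGMa against isotype control. In the last comparison, the genes lower at the study's threshold numbered 0 to 2 with an array left out, namely Oas3 and Sp100 without anti-RGMa replicate 4 or 6, and the genes with a value below 0 numbered 15 to 39 over the alternatives. None was higher, and 0 passed an adjusted p, under all 26. Same-numbered arrays did not deviate together (correlations -0.06 to 0.07), and the numbers were treated as names. Correlations over all genes cannot exclude a pairing that left little trace in the signals. With a replicate block, the counts were 38, 38 and 0, and the medians 3.14, 2.90 and -0.16. Dim naïve signals limit the fold changes of Dhx58, Mx1, Mx2, Oas2 and Oas3.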
